A study of Mus musculus with 60 samples.

Results

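The 36 genes described here carry the transcriptional response to low oxygen and the breakdown of glucose to lactate. They were listed by symbol, and each was read from the probe set that names that gene alone and has the highest mean over the arrays. A total of 34 of the 36 were measured this way, of 18194 genes on the array, and all 34 were among the 12791 genes tested. The probe sets for Gpi1 and Eno1 did not carry a single symbol, so these glycolytic enzymes were not analysed here. The values come from 60 carcinomas of 55 FVBBX mice, the offspring of (SPRET/Ei × FVB/N) animals backcrossed to FVB/N, whose dorsal skin had received the carcinogen DMBA and the promoter TPA. Every group below shares this cross and treatment, and the sources used here give no age at harvest. An origin label, F1BSF1 to F1BSF4, divides the mice further, and its values are spread unevenly over the histology groups. By the histology label, 38 tumors from 35 mice were squamous cell carcinomas (SCCs), 14 tumors from 13 mice were spindle cell carcinomas and 8 tumors from 7 mice had no histology. SCCs were well differentiated in 13 mice, moderately differentiated in 13 and poorly differentiated in 9. Females were 23 of 35 mice with SCC and 7 of 13 with spindle carcinoma. A p53 mutation was labeled in 8 and 4 of them, respectively.

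In cells with enough oxygen, prolyl hydroxylases mark the alpha subunits of hypoxia-inducible factor (HIF) for destruction. When oxygen falls the subunits persist, pair with ARNT and bind short motifs near genes for glucose uptake, glycolysis, lactate export, acid handling and vessel growth. Many carcinomas also keep glycolysis high when oxygen is present. Levels here are log2 values on each gene's own probe set, so that 1 unit is a doubling. They are compared between tumors and not between genes.

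The labels and the arrays did not match everywhere. Sex signals went against the label, or showed both sexes or neither, on 12 of 60 arrays, and 4 arrays formed near-identical pairs between different mice. The epithelial markers also cut across the histology label. A further label, tumor_class, whose meaning the sources used here do not give, put 16 tumors in class 1 and 44 in class 2. The mean of 22 epithelial adhesion genes reached at most 7.57 in class 1 and at least 7.79 in class 2. Class 1 held 9 of the spindle tumors and 5 of the SCCs, and class 2 held 5 spindle tumors and 33 SCCs. Results on histology are therefore given with and without these arrays and within each class.

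Spindle carcinomas had lower transcript levels of most hypoxia and glycolysis genes than SCCs. A score, the mean over the 34 genes of the log2 level minus each gene's mean over mice, was −0.43 ± 0.31 (SD, n = 13 mice) in spindle carcinomas and 0.13 ± 0.39 (SD, n = 35) in SCCs, a difference of −0.56, or 1.47-fold. Scores ran from −0.88 to 0.11 (median −0.53) in spindle carcinomas and from −0.72 to 0.75 (median 0.10) in SCCs. The groups overlapped, with 1 of 35 SCC mice under the spindle median and 1 of 13 spindle mice above the SCC median. Mice without histology scored 0.16 ± 0.18 (SD, n = 7).

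**Figure D1:**
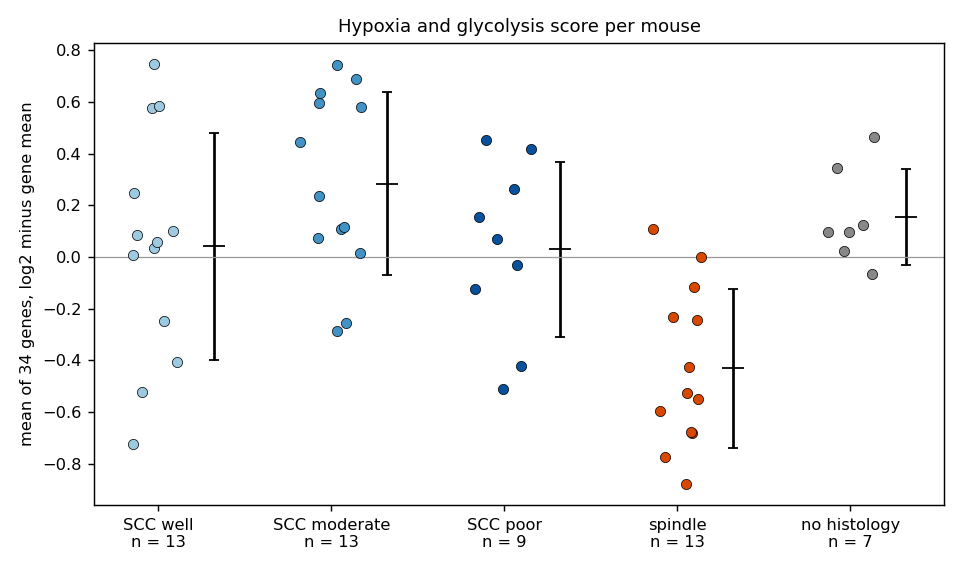
Score of the 34 hypoxia and glycolysis genes in each mouse (log2 units, points), by differentiation grade of SCC, spindle histology and no histology; the bar beside each group is the mean ± SD. Spindle carcinomas had a mean of −0.43, and the 3 SCC grades had means of 0.04, 0.28 and 0.03.

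By gene, 21 of 34 fell in spindle carcinomas and 1 rose at an adjusted p under 0.05 (limma, adjusted over all genes), and 12 did not pass. Over all genes tested, 11.0% were lower and 15.5% higher. The difference was negative for 32 of the 34, with a median of −0.51, against a median of 0.02 over all genes. Leaving out each mouse in turn gave 19 to 24 called members, and 17 of the 21 that fell, with Pfkm, kept their call throughout. Against poorly differentiated SCCs alone (9 mice) no gene of the 12791 passed. The members' median there was −0.41, 29 of 34 were negative and 16 had an unadjusted p under 0.05 (limma). Matching counts over all genes are not given for this fit, so these values describe the members alone.

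**Figure D2:**
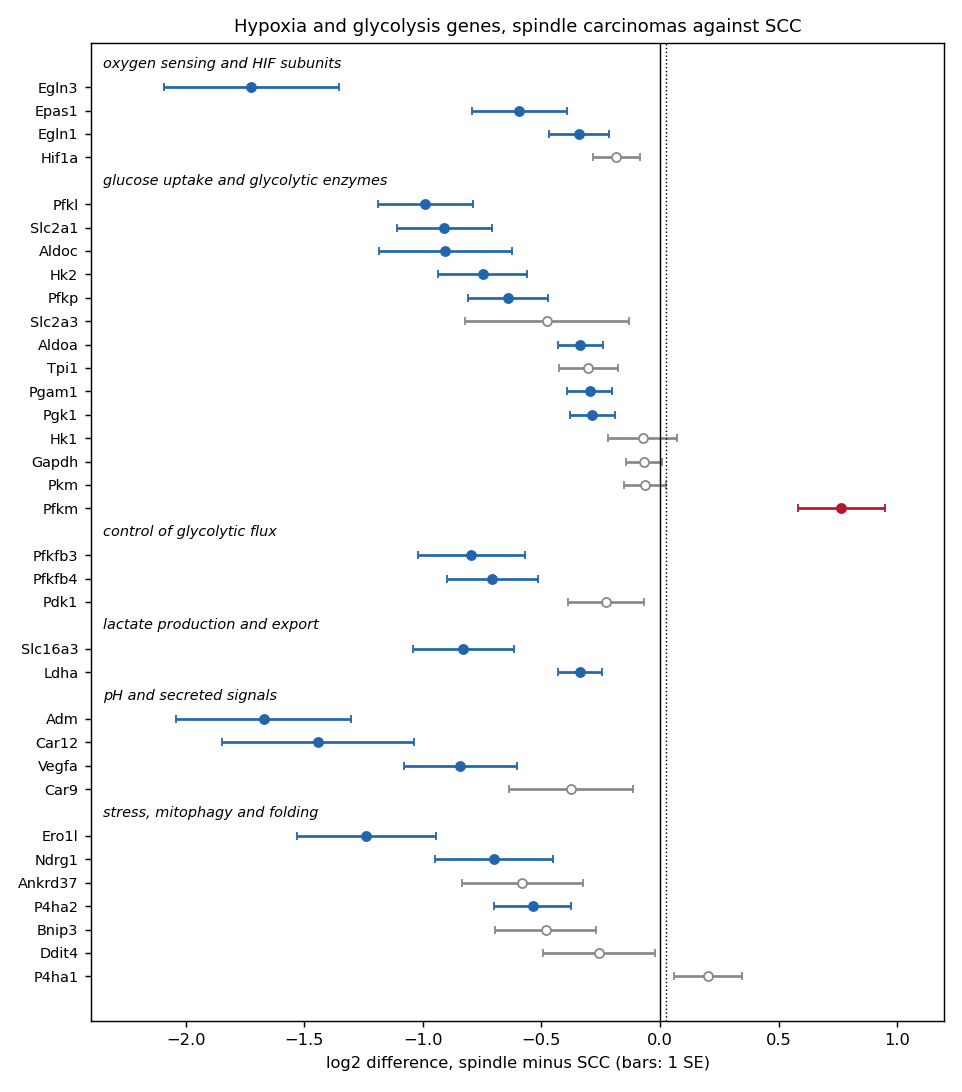
Log2 difference, spindle carcinomas minus SCCs, for each of the 34 genes with 1 standard error, grouped by role (13 and 35 mice). Filled points passed the test (blue lower, red higher), open points did not, and the dotted line marks the median of all genes (0.02); only Pfkm lies to the right among the filled points.

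Among the oxygen sensors and HIF subunits 3 of 4 fell. Egln3 encodes a prolyl hydroxylase that is itself a HIF target, and had the largest difference of all members. Its level was 6.23 to 10.04 (median 8.81) in spindle carcinomas and 7.25 to 12.10 (median 10.19) in SCCs. All 13 spindle mice lay under the SCC median, although the ranges overlapped. The difference was −1.72 (SE 0.37, 3.30-fold lower, adjusted p = 0.000751). Epas1, the HIF-2 alpha subunit, fell by 0.59 (SE 0.20, adjusted p = 0.0235), a call that was lost without the arrays of doubtful sex and without any of spindle 3, 7, 10 or 13 (adjusted p up to 0.0643). Egln1, the main prolyl hydroxylase under normal oxygen, fell by 0.34 (SE 0.13, adjusted p = 0.0376), and lost its call when every tumor was fitted with mouse as a random effect, when all probe sets of the gene were averaged, and without any of 7 single spindle carcinomas (1, 4, 7, 10, 12, 13 and 14; adjusted p up to 0.0930). Hif1a, the HIF-1 alpha subunit, is controlled largely through protein stability. Its transcript did not pass, with a median of 11.09 in spindle carcinomas and 11.27 in SCCs (difference −0.18, SE 0.10, adjusted p = 0.162).

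Of 14 genes for glucose uptake and glycolytic enzymes, 8 fell and 1 rose. Slc2a1 encodes GLUT1, the glucose transporter of many proliferating cells. It ran from 9.97 to 11.17 (median 10.28) in spindle carcinomas and from 9.54 to 12.65 (median 11.50) in SCCs, and all 13 spindle mice were under the SCC median. It fell by 0.91 (SE 0.20, 1.88-fold, adjusted p = 0.000881). Hk2, the hexokinase that traps glucose in many tumors, fell by 0.75 (SE 0.19, adjusted p = 0.00276). The other hexokinase, Hk1, did not pass (−0.07, SE 0.15). Its second probe set above the array median gave the opposite sign (0.06).

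The 3 phosphofructokinase genes, which encode the enzyme of the committed step of glycolysis, differed in direction. Pfkl, the liver type, had levels of 7.68 to 10.13 (median 8.64) in spindle carcinomas and 7.60 to 10.68 (median 9.91) in SCCs, with 12 of 13 spindle mice under the SCC median, and fell by 0.99 (SE 0.20, adjusted p = 0.00053). Pfkp, the platelet type, fell by 0.64 (SE 0.17, adjusted p = 0.0039). Pfkm, the muscle type, was the member that rose. Its level was 7.04 to 8.31 (median 7.51) in spindle carcinomas and 6.22 to 8.77 (median 6.78) in SCCs, and all 13 spindle mice were above the SCC median. The difference was 0.77 (SE 0.19, 1.70-fold, adjusted p = 0.00202). Of 15 striated muscle markers none passed, beside 26.5% of all genes called in either direction. Their mean ran from 4.38 to 8.68 (median 6.36) in spindle carcinomas and from 4.96 to 9.92 (median 6.33) in SCCs. Whether muscle content bears on the Pfkm difference was not tested.

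Of the 7 enzymes after phosphofructokinase 4 fell. The aldolase Aldoc, a form best known from brain, fell by 0.90 (SE 0.28), and the widely expressed Aldoa by 0.34 (SE 0.09, adjusted p = 0.00686). Pgk1, which makes the first ATP of the pathway, fell by 0.28 (SE 0.09, adjusted p = 0.0207), and lost its call with the SAM-type statistic and without spindle 11 (adjusted p = 0.0606). Pgam1, the mutase that follows it, fell by 0.30 (SE 0.10, adjusted p = 0.018), and lost its call with sex and origin as covariates. Gapdh, Pkm and Tpi1, enzymes of the same lower segment, did not pass, at −0.07 (SE 0.08), −0.06 (SE 0.09) and −0.30 (SE 0.12, adjusted p = 0.0632). Gapdh was read from the 3′ control probe set of the array. Slc2a3, the neuronal and leukocyte transporter GLUT3, was −0.48 (SE 0.35), and varied over 4.46 log2 units among mice.

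Control of flux and lactate showed the same direction. Pfkfb3 and Pfkfb4 make the fructose bisphosphate that activates phosphofructokinase. Pfkfb3 was 5.35 to 6.51 (median 6.05) in spindle carcinomas against 5.22 to 8.41 (median 6.76) in SCCs, and fell by 0.80 (SE 0.22, adjusted p = 0.00684), with all 13 spindle mice under the SCC median. Pfkfb4 fell by 0.71 (SE 0.19, adjusted p = 0.00515). Pdk1, which holds pyruvate back from mitochondria, did not pass (−0.23, SE 0.16). Ldha, the lactate dehydrogenase subunit that favors lactate formation, fell by 0.34 (SE 0.09, adjusted p = 0.00649). It ran from 11.91 to 12.91 (median 12.24) in spindle carcinomas and from 11.85 to 13.02 (median 12.70) in SCCs. Slc16a3, the lactate exporter MCT4, fell by 0.83 (SE 0.21, 1.78-fold, adjusted p = 0.00313).

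Among the genes for pH and secreted signals, 3 of 4 fell. Adm, the vasodilator peptide adrenomedullin, ran from 5.41 to 7.99 (median 7.09) in spindle carcinomas and from 5.92 to 11.27 (median 8.64) in SCCs. It fell by 1.67 (SE 0.37, 3.19-fold, adjusted p = 0.000925), and all 13 spindle mice lay under the SCC median. Car12, a carbonic anhydrase of the cell surface, ran from 5.16 to 9.65 (median 6.74) against 5.00 to 10.74 (median 8.91), and fell by 1.44 (SE 0.40, 2.72-fold, adjusted p = 0.00648). Vegfa, the main growth factor for vessels, fell by 0.84 (SE 0.24, 1.79-fold, adjusted p = 0.00713), with 12 of 13 spindle mice under the SCC median. Endothelial markers did not differ detectably, with 0 of 12 called, beside 26.5% of all genes in either direction. Car9, the related carbonic anhydrase often used to mark hypoxic tumor, did not pass (−0.38, SE 0.26, adjusted p = 0.304).

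Of 7 genes for stress, mitophagy and protein folding 3 fell. Ero1l, the oxidase that forms disulfide bonds in the endoplasmic reticulum, ran from 8.07 to 11.22 (median 9.11) in spindle carcinomas and from 7.76 to 11.66 (median 10.45) in SCCs, with 12 of 13 spindle mice under the SCC median. It fell by 1.24 (SE 0.29, 2.36-fold, adjusted p = 0.0017). Ndrg1, a stress and differentiation gene, fell by 0.70 (SE 0.25, adjusted p = 0.0313), and lost its call without any of spindle 3, 4, 7, 10, 12 or 14 (adjusted p up to 0.0783). P4ha2, a collagen prolyl hydroxylase subunit, fell by 0.54 (SE 0.16, adjusted p = 0.0118). Its partner isoform P4ha1 was 0.20 (SE 0.14) higher and did not pass, and was the only member besides Pfkm with a positive difference. Bnip3, a mitophagy receptor, was −0.48 (SE 0.21, adjusted p = 0.0875), Ankrd37 was −0.58 (SE 0.25, adjusted p = 0.0842) and Ddit4, an inhibitor of mTORC1, was −0.26 (SE 0.24), none of which passed.

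**Figure D3:**
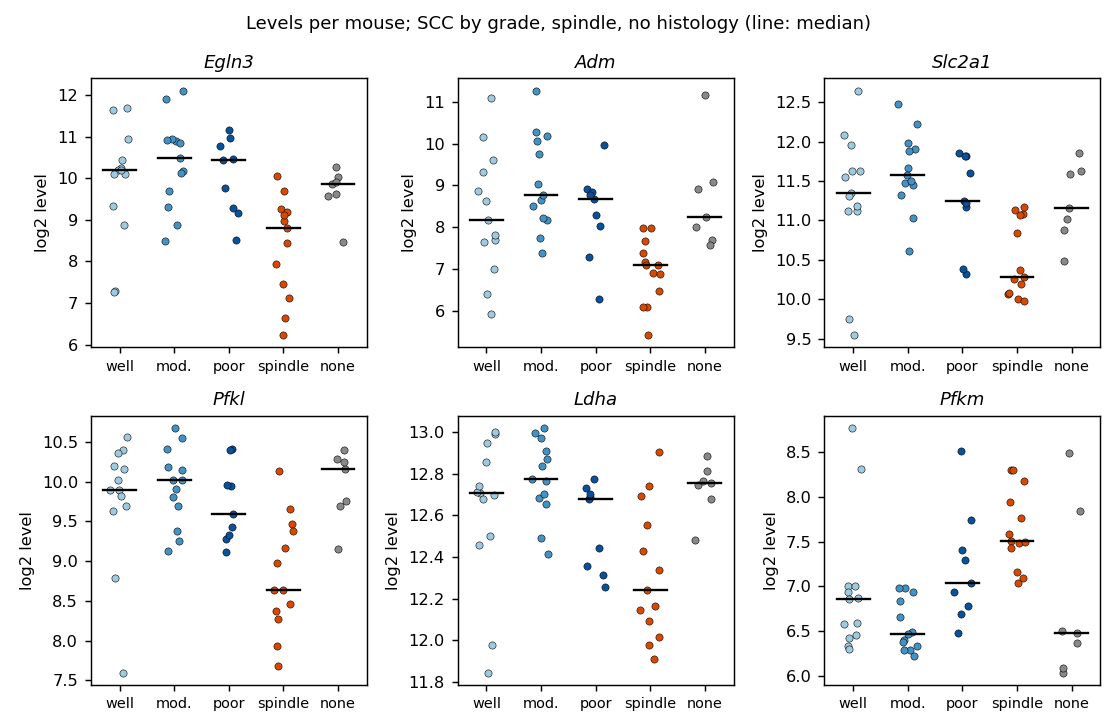
Log2 level of 6 members in each mouse (points; line, median), for SCCs by grade (well, mod., poor), spindle carcinomas and tumors without histology (none). The spindle medians are 8.81 for Egln3, 7.09 for Adm, 10.28 for Slc2a1, 8.64 for Pfkl, 12.24 for Ldha and 7.51 for Pfkm; the last is above the SCC median and the others are below it.

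Other probe sets for the members mostly ran the same way. There were 36 further probe sets above the lowest array median for 20 of the genes, and 35 had the sign of the probe set used. The probe sets used for Aldoa, Pgk1 and Adm are of the x_at kind, which can hybridize to related transcripts.

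The promoters of the members were searched for the core of the HIF motif. Since the members were listed for their part in the low-oxygen response and glycolysis, the list itself favors a high share. The shares below therefore describe the list and not these tumors. ACGTG, read on both strands, was present in the RefSeq promoter windows (250 bases before to 50 after a gene start, GRCm38.p6) of 24 of 31 members with a window (77.4%), and in 28.5% of 10268 tested genes with a window. The related GCGTG was in 67.7% of members and 54.2% of tested genes. Per window rather than per gene, ACGTG was in 62.8% of 43 member windows and 24.6% of 13073 windows. Among the members called lower, 14 of 19 held ACGTG (73.7%). These shares describe letters in a window and carry no test; no window was given for Epas1, Slc2a3 or Ndrg1. The stretches below are each 100 bases long, lie within the 250 bases before the gene start at a place chosen to hold the matches found there, and belong to the 5 members with the largest differences, and show that such matches were not shared by all of them. Capitals mark ACGTG or GCGTG on either strand (CACGT and CACGC on the strand printed).
Egln3, chr12:54204025-54204124, minus strand: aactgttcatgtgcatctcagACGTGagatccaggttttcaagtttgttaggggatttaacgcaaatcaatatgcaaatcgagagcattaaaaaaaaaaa
Adm, chr7:110627535-110627634, plus strand: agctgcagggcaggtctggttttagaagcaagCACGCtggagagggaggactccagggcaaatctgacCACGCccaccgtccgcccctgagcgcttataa
Car12, chr9:66713586-66713685, plus strand: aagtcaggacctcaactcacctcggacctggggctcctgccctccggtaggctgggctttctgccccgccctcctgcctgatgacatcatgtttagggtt
Ero1l, chr14:45318616-45318715, minus strand: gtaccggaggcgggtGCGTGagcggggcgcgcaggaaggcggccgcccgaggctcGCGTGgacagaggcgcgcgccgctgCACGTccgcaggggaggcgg
Pfkl, chr10:78009857-78009956, minus strand: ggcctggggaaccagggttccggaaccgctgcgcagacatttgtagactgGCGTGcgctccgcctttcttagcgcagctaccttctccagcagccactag
Ero1l held 3 matches in its 100 bases, Adm 2, Egln3 and Pfkl 1 each, and Car12 none, in these or in the full 250. Pfkm, the member that rose, also held ACGTG, in 2 of its 4 windows.

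Epithelial content moved with histology. Of 22 epithelial adhesion genes 20 were lower in spindle carcinomas (median difference −2.04), and their mean ran from 4.80 to 9.58 (median 6.40) in spindle mice and from 4.23 to 10.15 (median 9.51) in SCC mice. In bulk tumor RNA, fewer cells of a type cannot be told apart from less RNA per cell. Squamous differentiation genes were lower for 8 of 12, 7 of 15 mesenchymal genes were higher and 1 was lower, 4 of 8 neutrophil genes were lower and 2 of 10 macrophage genes were higher, beside 11.0% of all genes lower and 15.5% higher.

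Read by class, and as a description with no test, scores lay further apart between classes than between histologies of the same class. Class 1 SCCs scored −0.56 ± 0.23 (SD, n = 5 tumors) and class 1 spindle carcinomas −0.61 ± 0.16 (SD, n = 9), whereas class 2 SCCs scored 0.20 ± 0.33 (SD, n = 33) and class 2 spindle carcinomas −0.02 ± 0.26 (SD, n = 5). The class 1 SCCs ranged from −0.95 to −0.32 and the class 1 spindle carcinomas from −0.88 to −0.37, and 1 of the 5 class 2 spindle carcinomas scored 0.36. These n count tumors, not mice, and the class 1 SCCs hold few independent mice. SCC 3 and SCC 4 came from the same mouse, and SCC 21 and SCC 22 of different mice were near-identical. The sex signals of SCC 24 went against its label. With the class as a covariate, no member and no gene passed for histology (limma; 2 members with an unadjusted p under 0.05), and the members' median was −0.15. The same was true of the members with the epithelial mean as a covariate (median −0.16, 29 of 34 negative) and within class 1 (median −0.09, 19 of 34 negative) and class 2 (median −0.16, 30 of 34 negative), 3 fits chosen after the data were seen. Since the class divides the arrays at a level of the epithelial genes, class and epithelial content cannot be told apart for these members. Histology overlapped with both in part, and few tumors (5 class 1 SCCs and 5 class 2 spindle carcinomas) separate it from class. The class 1 tumor no histology 8 scored 0.10 at an epithelial mean of 6.56.

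**Figure D4:**
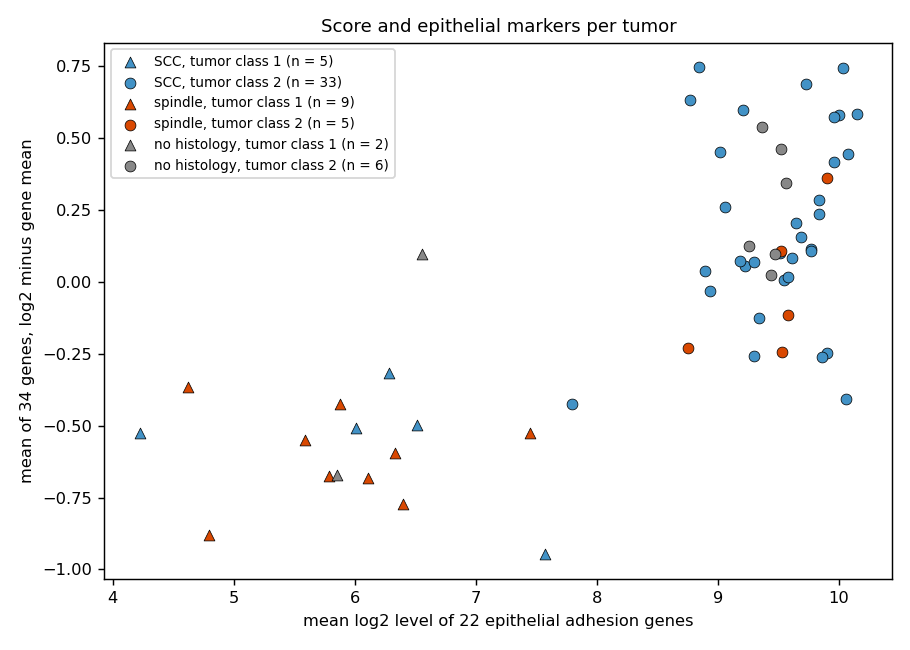
Score of the 34 genes against the mean log2 level of 22 epithelial adhesion genes, 1 point per tumor; color gives the histology label and shape the tumor_class label. Class 1 tumors (triangles) lie at 7.57 or less on the horizontal axis, and SCCs among them scored −0.56 on average against 0.20 for class 2 SCCs.

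Single members showed the same layout to different degrees. Car12 averaged 5.93 ± 0.84 in class 1 SCCs (SD, n = 5 tumors) and 6.14 ± 1.40 in class 1 spindle carcinomas (n = 9), against 8.97 ± 0.69 in class 2 SCCs (n = 33) and 8.94 ± 0.68 in class 2 spindle carcinomas (n = 5). Ldha ran from 11.58 to 12.26 in class 1 SCCs and from 12.31 to 13.02 in class 2 SCCs, with no overlap. Adm differed by histology in either class, with 7.35 and 6.58 in class 1 and 8.74 and 7.79 in class 2 (SCC and spindle means), although neither within-class difference passed. Pfkm averaged 6.75 ± 0.48 in class 2 SCCs and between 7.54 and 7.98 in the other 3 sets. Means were lower in class 1 than in class 2 SCCs for 31 of 34 members, and lower in class 1 than in class 2 spindle carcinomas for 30.

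Among the 5 mice that gave a pair of tumors, 3 had tumors of both classes. The class 1 tumor of each had the lower score. Spindle 8 (class 1) scored −0.37 and spindle 9 (class 2) of the same mouse 0.36, with Egln3 at 8.19 and 11.89. No histology 6 (class 1) scored −0.67 and its partner 0.54, and SCC 22 (class 1) −0.32 and its partner −0.26, where Egln3 was the higher in the class 1 tumor (8.80 against 8.18). These 3 pairs were not tested, and some of their arrays are doubtful. Spindle 8 showed the signals of both sexes and spindle 9 of neither, and spindle 9 also had a high Gapdh 3′ excess. SCC 22 was near-identical to SCC 21 of another mouse (r = 0.99).

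Of the wider pathway, 62 of 72 listed genes were tested. Other HIF targets fell in 3 of 18 and rose in 1: Ak4, a mitochondrial adenylate kinase, fell by 1.15 (SE 0.27), Fam162a by 0.96 (SE 0.21) and Higd1a, an inner membrane protein of mitochondria, by 0.88 (SE 0.19), whereas Plod1, a collagen lysyl hydroxylase, rose by 0.88 (SE 0.21). None of 9 other HIF pathway regulators passed. Among 14 other glycolysis and lactate isoforms, Tigar (−0.58), Pfkfb2 (−0.51) and Slc2a4 (−0.33) fell, and the enolases Eno3 (0.91) and Eno2 (0.77) rose. In the pentose phosphate pathway, which branches from glycolysis, 4 of 6 fell, namely Rpe (−0.65), Rpia (−0.43), Pgd (−0.31) and Tkt (−0.28). Of 15 genes for pyruvate entry and the tricarboxylic acid cycle none fell, and the succinate dehydrogenase subunits Sdha (0.32) and Sdhb (0.30) rose. The lists thus ranged from a share of 4 in 6 down to 0 in 15 lower, beside 11.0% of all genes lower and 15.5% higher. The other HIF targets (3 of 18 lower, 1 higher) and HIF pathway regulators (0 of 9) did not reach the members' share of 21 in 34 lower.

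Differentiation grade within SCC gave no call. No member passed between any pair of grades with limma, and neither did any other gene (0% in each of the 3 comparisons). A SAM-type permutation statistic called no member either, except Car9 between poor and moderate SCCs. The score was 0.04 ± 0.44 in well (SD, n = 13), 0.28 ± 0.35 in moderately (n = 13) and 0.03 ± 0.34 in poorly differentiated SCCs (n = 9). The mean was highest in moderately differentiated SCCs for 27 of 34 members, a count not made for all genes. The epithelial adhesion mean had the same order, at 8.98 in well, 9.49 in moderately and 8.79 in poorly differentiated SCCs. Class 1 tumors were SCC 3, SCC 4 and SCC 24 (well), SCC 22 (moderate) and SCC 21 (poor). Whether class or epithelial content bears on the grade means was not tested. For moderate against well differentiated SCCs 29 differences of members were positive (median 0.20) and 6 had an unadjusted p under 0.05 (limma). Of all 12791 genes, 55.4% had a negative difference and 318 had an unadjusted p under 0.05. Among the members Ero1l had the smallest p (0.92, SE 0.33), and ran from 9.26 to 11.66 (median 11.23) against 7.76 to 11.26 (median 9.98). Car9 (0.69, SE 0.29) and Ndrg1 (0.68, SE 0.28) followed, all with adjusted p = 1.00. For poor against moderate SCCs, 27 were negative (median −0.22) and 5 had an unadjusted p under 0.05. Of all 12791 genes, 45.6% were negative there and 1089 had such a p.

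Car9 had the largest difference and the smallest p between poor and moderate SCCs, at 4.69 to 6.20 (median 5.68) against 5.32 to 7.28 (median 6.60). All 9 poorly differentiated tumors lay under the moderate median. The difference was −1.04 (SE 0.32, adjusted p = 0.575 by limma), and Car9 was among the 3 genes that the SAM-type statistic called. Pfkm (0.65, SE 0.25) and Ero1l (−0.83, SE 0.37) had the next smallest p. Poorly and well differentiated SCCs gave no member with an unadjusted p under 0.05, the smallest being for P4ha2 (0.32, SE 0.21), Car12 (−0.63, SE 0.49) and Gapdh (0.14, SE 0.11). Such a p was found for 687 of all 12791 genes.

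The p53 label did not separate the members. The score was 0.02 ± 0.39 in 14 mice with a p53 mutation and −0.01 ± 0.44 in 41 without, and no member passed with limma or the SAM-type statistic, beside 0.281% of all genes with limma. Mutations were labeled in 5 of 9 mice with poorly differentiated SCC and 1 of 13 with well differentiated SCC. Slc2a3 had an unadjusted p under 0.05, the sole member to do so, with 6.26 to 9.48 (median 7.60) in mutant and 5.90 to 10.37 (median 8.12) in other tumors (−0.69, SE 0.32, adjusted p = 0.394). Pfkfb4 (−0.35, SE 0.20) and P4ha2 (0.27, SE 0.17) were next. An unadjusted p under 0.05 was found for 1433 of all 12791 genes (limma).

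Lymph node status was given for 15 positive and 19 negative mice. Scores were −0.06 ± 0.39 and −0.06 ± 0.45, no member or other gene passed with limma (0%), no member with the SAM-type statistic, and none had an unadjusted p under 0.05. The smallest p was for Vegfa, with 7.51 to 8.98 (median 8.10) in node-positive and 6.09 to 9.45 (median 7.92) in node-negative mice (0.46, SE 0.26, adjusted p = 0.932). Hk1 was 0.25 (SE 0.15) higher and Pfkfb4 0.31 (SE 0.20) lower, neither past the test. Of all 12791 genes, 533 had an unadjusted p under 0.05 (limma).

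Mice with fewer than 2 papillomas at 20 weeks (resistant, n = 17) and with more than 7 (sensitive, n = 16) had carcinoma scores of 0.02 ± 0.37 and −0.01 ± 0.36. No member or other gene passed with limma (0%), and no member with the SAM-type statistic. An unadjusted p under 0.05 (limma) was found for 7 members, and for 1055 of all 12791 genes. Gapdh ran from 13.15 to 13.54 (median 13.37) in resistant and from 12.91 to 13.40 (median 13.19) in sensitive mice (0.19, SE 0.06, adjusted p = 0.508), with 13 of 17 resistant mice above the sensitive median. Pfkfb4 was −0.61 (SE 0.20) and Slc2a3 −0.82 (SE 0.29). The papilloma groups overlapped with other labels. A p53 mutation was labeled in 8 of 17 resistant and 2 of 16 sensitive mice, and well differentiated SCC in 1 and 7, respectively. The difference by histology in males minus that in females gave no passing member with limma (0% of all genes) and 4 with an unadjusted p under 0.05, among which Slc2a3 (1.63, SE 0.68), Hif1a (0.41, SE 0.19) and Slc16a3 (0.87, SE 0.42) had the smallest p. Of all 12791 genes, 790 had such a p. Sex here is the label, which the sex signals contradicted or left unclear on some of these arrays. Among the spindle tumors labeled male, spindle 8 and spindle 13 showed both sexes and spindle 9 neither.

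The members differed in how widely they varied among mice. Egln3 spanned 5.88 log2 units over all mice, Adm 5.86 and Car12 5.75, whereas Ldha spanned 1.17, Pkm 1.29 and Gapdh 1.29. Since SCCs fell into 2 classes, correlations are given within the 31 mice whose SCCs were all of class 2. Over 561 pairs of members the median Pearson r was 0.37, with 254 pairs positive and 18 negative at an adjusted permutation p under 0.05 (281 by Spearman's rho in either direction). Pairs of other genes were not computed, so whether these shares are particular to the members was not tested. The 13 spindle mice hold both classes, and relations among them are not given.

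**Figure D5:**
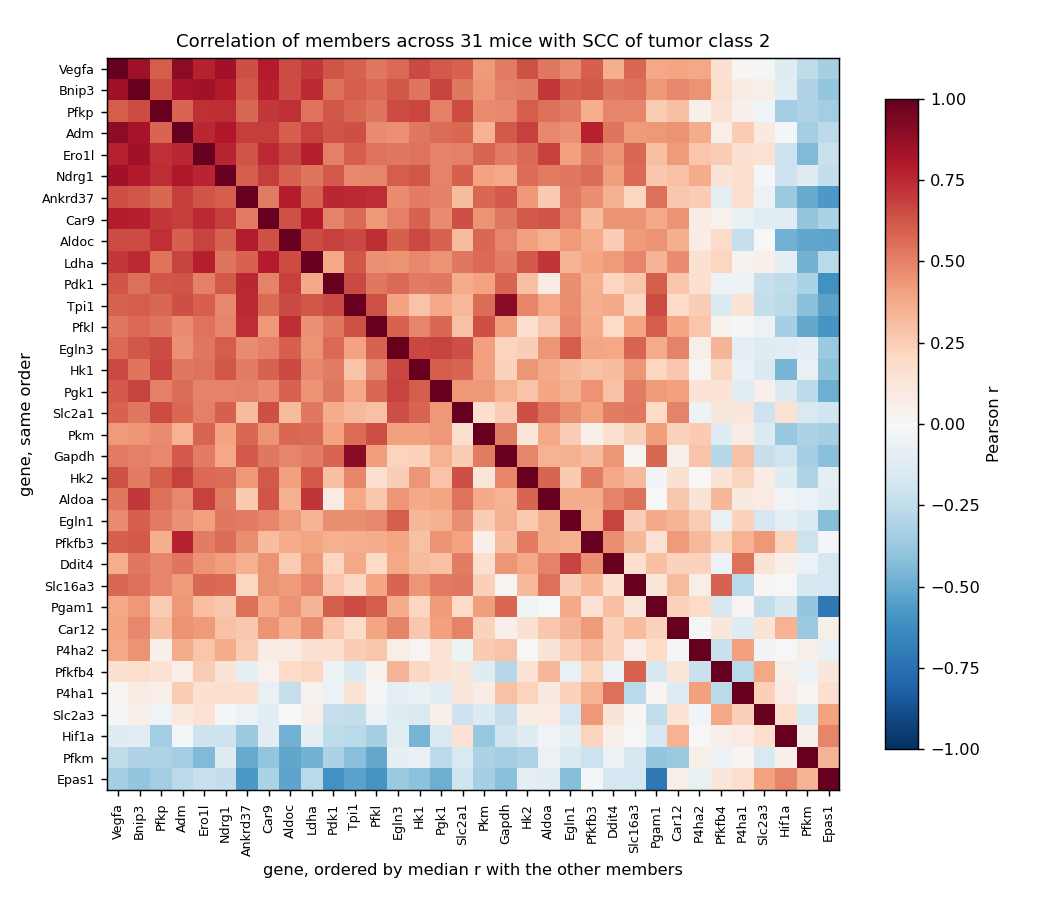
Pearson r between each pair of the 34 genes over 31 mice with SCC of class 2 (red positive, blue negative), with genes ordered by their median r with the other members. Vegfa, Bnip3 and Pfkp stand at the top left, with medians of 0.57, 0.55 and 0.54, and Epas1 and Pfkm at the bottom right, with −0.27 and −0.26.

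The highest r of the 561 pairs was between Tpi1 and Gapdh, successive enzymes of glycolysis. It was 0.90 (permutation p = 1e-05, the smallest that the permutations can give; adjusted p = 0.000187), with rho = 0.85 (permutation p = 1e-05) and r = 0.89 without the 2 mice farthest from the Tpi1 median. Vegfa and Adm, the secreted factors, had r = 0.90 and rho = 0.86 (each permutation p = 1e-05), and 0.87 without 2 mice. Vegfa also followed Bnip3 (r = 0.85, rho = 0.79) and Ndrg1 (r = 0.84, rho = 0.82). Vegfa had the highest median r with the other members. Called partners were fewest for Pfkfb4 (1), P4ha1, P4ha2 and Slc2a3 (2 each) and Hif1a (3).

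Epas1 and Pfkm ran against the rest. Epas1 was negatively related to 10 members, most of all Pgam1 (r = −0.71, permutation p = 1e-05, adjusted p = 0.000187; rho = −0.77, p = 1e-05; −0.71 without 2 mice). It rose with the mesenchymal marker mean (r = 0.73, permutation p = 1e-05, adjusted p = 0.00306; rho = 0.75, p = 1e-05; 0.61 without 2 mice) and with the endothelial mean (r = 0.66, permutation p = 4e-05, adjusted p = 0.00306; rho = 0.63, p = 0.00018; 0.56 without 2 mice). These belong to 306 relations of 34 members with 9 marker lists. Pfkm was negatively related to 6 members, Pfkl among them (r = −0.51, permutation p = 0.0028, adjusted p = 0.0095; rho = −0.49, p = 0.00556; −0.53 without 2 mice). It rose with the striated muscle mean (r = 0.75, permutation p = 7e-05, adjusted p = 0.00408; rho = 0.53, p = 0.00253; 0.46 without 2 mice). The part of muscle tissue in the Pfkm values was not tested further.

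Within class 2 the epithelial mean was related to 1 member by this test and the squamous mean to none, with median r of 0.15 and 0.07 over the 34. The mesenchymal mean was related negatively to 4 members and positively to Epas1, with a median r of −0.41.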

How the data were processed

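Gene expression was measured in 60 carcinomas on Affymetrix mouse genome arrays. The authors deposited log2 values per probe set made with RMA (background correction, quantile normalization and probe summary); its version is not given in the sources used here. Of 45101 probe sets, 34958 had 1 symbol, 932 several and 9211 none in the platform annotation; 34754 matched RefSeq (GRCm38.p6). The probe set with the highest mean stood for a gene. A gene was tested if its level passed the median of 8 or more arrays, which left 12791 of 18194. Values of a mouse's tumors were averaged. Comparisons used limma 3.58.1 in R 4.3.3 with Benjamini-Hochberg adjustment over all genes and a threshold of 0.05, checked on simulated data. The limma p-values weigh a group difference against the spread between mice, whose number limits the precision. A SAM-type statistic (100 permutations) was an alternative, since the study used SAM. Correlations used 100000 two-sided permutations. Groups came from the labels; replicate numbers only name tumors. Arrays doubted for sex or similarity were kept, and left out in alternatives. Members, lists and tests were chosen with earlier results of these data known. Named were the members that passed and, of the others, the 6 with the highest mean for histology or, in each further comparison, the 3 with the smallest p, and up to 4 passing genes per pathway list; genes outside this rule, and pairs, were named after their values were seen. The marker lists covered epithelial adhesion, squamous, mesenchymal, endothelial, muscle, adipocyte (2 of 5 lower in spindle carcinomas), neutrophil, macrophage and T cell genes (1 of 5 lower).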

Additional observations from a re-analysis of the deposited data

Results flagged for a closer look

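In groups of 4 to 10 mice, 4 of 70 tests placed a mouse far from the others; chance gives about 1 in 20. Among the 9 mice with poorly differentiated SCC, SCC 26 had P4ha1 at 7.44 and the next lowest mouse 8.03. Among the 7 mice without histology, tumor 5 had Egln3 at 8.47 (next 9.56), tumor 1 had Adm at 11.16 (next 9.08), and the mouse of tumors 6 and 7 had Tpi1 at 11.63 (next 12.05).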

How the results depend on the processing

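For spindle carcinomas against SCCs, 22 members passed, and 21 to 24 did so under other filters, scalings, probe set averages, a trended limma fit, mouse as a random effect, the SAM-type statistic, covariates for sex and origin or for p53, and without the arrays of doubtful sex, high similarity or high Gapdh 3′ excess. Leaving out each mouse gave 19 to 24. With tumor_class as a covariate 0 passed, and against poorly differentiated SCCs alone 0; after seeing the data, class 1 arrays alone gave 0, class 2 arrays alone 0, and the epithelial mean as a covariate 0. These fits differ in the mice or terms they hold, and the cause was not tested. With tumor_class as a covariate the sign turned for Car12 (0.16), Ddit4 (0.12), Gapdh (0.0306), Ndrg1 (0.0072), P4ha1 (−0.0187), Pdk1 (0.0539) and Pkm (0.12). Against poorly differentiated SCCs it turned for Car9 (0.14), Hk1 (0.11) and Pkm (0.0216). In class 1 it turned for Ankrd37 (0.55), Car12 (0.43), Car9 (0.28), Ddit4 (0.51), Ero1l (0.46), Gapdh (0.23), Ldha (0.0760), Ndrg1 (0.0018), Pdk1 (0.38), Pfkm (−0.0319), Pfkp (0.10), Pgam1 (0.0007), Pkm (0.35), Slc2a1 (0.23) and Tpi1 (0.27). In class 2 it turned for Egln1 (0.0162) and Hk1 (0.22), and with the epithelial covariate for Car12 (0.0005), Gapdh (0.0031), P4ha1 (−0.0442), Pdk1 (0.0273) and Pkm (0.10). Between poor and moderate SCCs the SAM-type statistic called 1 member. Of members that had not passed, Tpi1 did so without any of 4 mice (SCC 24, SCC 3 and 4, SCC 36 or spindle 4) and Ankrd37 without any of 3 (SCC 24, spindle 4, or spindle 8 and 9). The score difference was −1.42 SDs of SCC and −1.28 to −1.45 otherwise. The planned correlations took all 35 mice with SCC (median r 0.44, 0.40 to 0.44 with rho or fewer mice); class 2 alone (0.37) was chosen after seeing the data. No paired analysis was possible because the replicate numbers that groups share only name tumors, and no mouse gave both an SCC and a spindle carcinoma; the pairs of tumors from 1 mouse were described without a test.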
